A study of Mus musculus with 17 samples.

Results

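The 31 genes described here encode the enzymes that build cholesterol, the proteins that switch those enzymes on and off, and the proteins that move or store sterols in the cell. They were taken by name and not by a cut on any measured value, but with earlier results of these data known. The list holds 8 genes of the mevalonate part of the pathway, 12 of the part from squalene to cholesterol, 5 of its control by sterol regulatory element-binding proteins (SREBPs) and 6 of sterol transport and esterification. All 31 were among the 53278 gene symbols measured, and all 31 were among the 15066 that reached a level of 1 TPM (transcripts scaled to a fixed total per library) in at least 2 libraries and were tested.

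Cholesterol is made from acetyl-CoA. The early enzymes condense it into mevalonate and convert that into isoprenoid units, which also feed ubiquinone, dolichol and protein prenylation, and the later enzymes join these units into squalene, close its rings and trim lanosterol to cholesterol. SREBP-2, encoded by Srebf2, is the main activator of these enzymes. It is made in the membrane of the endoplasmic reticulum, where the escort protein SCAP carries it to the Golgi for cleavage when sterols are scarce and INSIG proteins hold it back when sterols are plentiful. The small-intestinal epithelium both makes cholesterol and takes it up from bile and diet. NPC1L1 brings it in at the brush border, the half-transporters ABCG5 and ABCG8 return sterols to the lumen, SOAT2 esterifies cholesterol for lipoproteins, and ABCA1 hands it to high-density lipoprotein at the basal side.

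RNA came from EpCAM+ CD45- Ter119- cells, a gate for epithelium that leaves out leukocytes and red cells, sorted from small intestine. Every mouse was Igha -/+ on the C57BL/6 strain, so each carried 1 working copy of the gene for the IgA heavy chain. The groups differed in the nursing dam, either a C57BL/6 dam (B6 dam) or an IgA -/- dam that has no IgA to pass on (IgA-null dam), and in the day of life, 14, 24 or 42. There were 6 groups with 3 libraries each, but only 2 for the B6 dam at day 24. Values "under" a dam are those of mice it nursed. The comparison between dams asks what maternal IgA changes in the epithelium, and the comparison between days follows it from suckling through weaning. The labels do not say which mice shared a litter or a dam or which stretch of intestine was taken, so a p-value below speaks of the scatter among these samples, which may be technical. A date in the sample names differed between the dams at days 14 and 24, was the same at day 42, and within a dam differed between ages except between days 24 and 42 of the IgA-null dam. Where it differed, the date and the group cannot be told apart. A letter at the start of the sample names, F or M, whose meaning is not given in the sources used here, went with the dam in every library, day 42 too, so it and the dam cannot be told apart.

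Values below are scaled TPM, the deposited TPM divided by a size factor for each library. TPM counts reads per length, and the length that gave whole reads was that of all annotated exons of a gene joined. Levels can therefore be compared only roughly between genes. Size factors ran from 0.477 to 1.83. Reads recovered from the TPM came to 8477226 to 18305346 per library, a lower bound of the depth. The epithelial marker Epcam lay between 245 and 552 scaled TPM, and the leukocyte marker Ptprc did not exceed 0.737. The macrophage marker Csf1r was 1.19 to 6.32 under the B6 dam at day 14 and at most 0.431 in the other libraries, and it was called between the dams at day 14 (-1.63) and lower at days 24 and 42 under the B6 dam (-1.95 and -1.96). The other leukocyte markers read, Ptprc, Cd3e, Cd79a, Adgre1 and Lyz2, did not stand high with it and were at most 0.129 under the B6 dam at day 14. The globin gene Hbb-bs was 44.9 in IgA-null dam day 24 replicate 2 and at most 1.196 elsewhere. The part of these cells in the results was not tested. The libraries of 1 group were not equally alike. The standard deviation (SD) of the log2 difference between 2 libraries over the tested genes outside the list was 0.678 for the B6 dam pair at day 24 and 0.552 and 0.520 between replicate 1 of the B6 dam group at day 42 and the others of its group. It was 0.469 to 0.566 in the IgA-null dam group at day 24 and 0.341 to 0.455 elsewhere. With 2 libraries, which of the day 24 pair stands apart cannot be decided, and results that rest on these libraries are given with and without them.

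For each test, log2(scaled TPM + 1) was fitted with limma over all genes, and a gene was called when its Benjamini-Hochberg adjusted p was under 0.05. Differences are on that log2 scale with their standard error (SE), which understates the change of low genes. In bulk RNA, fewer cells of a type and less RNA per cell cannot be told apart.

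Promoter sequence was available for 26 of the 31 genes as RefSeq windows (GRCm38.p6) from 250 bases before to 50 bases after a start site. The windows were searched on both strands for TCACNCCAC, a form of the sterol regulatory element bound by SREBPs, and for CCAAT, the site of the factor NF-Y that works beside SREBPs on sterol genes. TCACNCCAC was found in 1 of the 26 genes, Hmgcs1, against 1.44% of all 27025 genes with a window. The shorter CACCCCAC, which can lie within it, was in 2 of the 26, Hmgcs1 and Acat2, or 7.69%, against 3.30% of all genes. CCAAT was found in 23 of the 26, or 88.5%, against 41.1% of all genes. CACGTG, an E-box, was in 6 of the 26, or 23.1%, against 8.09% of all genes. The bases before the start are printed for 3 enzymes that were higher after day 14 and for the uptake and export transporters Npc1l1 and Abca1, in lower case with matches to the first 2 motifs, on either strand, in capitals. Hmgcs1 lies at chr13:119690101-119690350 on the plus strand, and Mvd at chr8:122443423-122443672, Ebp at chrX:8193513-8193762, Npc1l1 at chr11:6230246-6230495 and Abca1 at chr4:53159896-53160145 on the minus strand.
Hmgcs1: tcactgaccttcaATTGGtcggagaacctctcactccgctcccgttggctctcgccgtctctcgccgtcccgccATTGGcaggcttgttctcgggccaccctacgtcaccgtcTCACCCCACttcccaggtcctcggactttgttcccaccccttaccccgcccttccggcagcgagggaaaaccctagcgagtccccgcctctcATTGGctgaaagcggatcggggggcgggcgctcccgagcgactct
Mvd: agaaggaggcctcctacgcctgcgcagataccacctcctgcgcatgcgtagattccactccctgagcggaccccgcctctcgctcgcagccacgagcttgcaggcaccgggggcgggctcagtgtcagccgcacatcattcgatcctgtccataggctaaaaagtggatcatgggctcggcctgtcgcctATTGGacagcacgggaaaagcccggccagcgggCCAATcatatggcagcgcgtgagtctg
Ebp: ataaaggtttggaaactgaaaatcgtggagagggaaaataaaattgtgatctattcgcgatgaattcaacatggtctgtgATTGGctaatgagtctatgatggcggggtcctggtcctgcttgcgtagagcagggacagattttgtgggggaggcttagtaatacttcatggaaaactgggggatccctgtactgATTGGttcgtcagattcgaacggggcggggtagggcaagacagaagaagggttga
Npc1l1: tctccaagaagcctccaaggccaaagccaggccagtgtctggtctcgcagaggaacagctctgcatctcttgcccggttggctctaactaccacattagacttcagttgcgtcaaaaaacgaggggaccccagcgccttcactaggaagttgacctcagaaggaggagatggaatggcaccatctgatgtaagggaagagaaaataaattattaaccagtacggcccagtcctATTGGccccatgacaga
Abca1: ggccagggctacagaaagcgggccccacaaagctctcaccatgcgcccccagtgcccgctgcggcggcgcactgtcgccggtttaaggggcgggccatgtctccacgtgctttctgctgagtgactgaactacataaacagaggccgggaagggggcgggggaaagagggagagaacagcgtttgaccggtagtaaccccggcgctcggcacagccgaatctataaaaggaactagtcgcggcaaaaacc
The only TCACNCCAC match, TCACCCCAC in Hmgcs1, starts 137 bases before the start site, and 3 CCAAT matches stand around it. Mvd has CCAAT matches at 60 and 27 bases before the start and Ebp at 170 and 55. Npc1l1 has 1 match at 17 bases before the start, and Abca1 has none in the window. A match describes letters only, and binding was not measured. No window was matched for Fdps, Fdft1, Sqle, Stard4 and Soat2.

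The summed level of the cholesterol synthesis enzymes was lowest at day 14 with either dam and higher at days 24 and 42. By day 24, 10 of the 20 enzymes had risen and 0 had fallen under the B6 dam, where 13.8% of all genes were called and 7.93% were called higher. Under the IgA-null dam 8 of the 20 rose and 0 fell, where 16.6% of all genes were called and 8.35% were called higher, although in the TPM as deposited, where the median of all genes shifted by -1.02, the same 8 differences were negative. By day 42, 11 rose under the B6 dam (13.6% of all genes called, 7.04% higher) and 12 under the IgA-null dam (16.5% called, 8.40% higher), and 0 fell. The median change of the 20 enzymes from day 14 to 42 was 0.51 under the B6 dam, where the median over all genes was -0.01, and 0.59 under the IgA-null dam, where it was -0.02. The summed level of the 20 enzymes was 66.5 to 75.3 scaled TPM at day 14 and 102 to 121 at day 42 under the B6 dam. Under the IgA-null dam the sum went from 66.2 to 70.6 up to 110 to 113, and the libraries of the 2 days did not overlap with either dam.

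Members called from day 14 to 24 with both dams numbered 7, which is 63.6% of the 11 called under the B6 dam and 70.0% of the 10 called under the IgA-null dam. They were Hmgcs1, Mvk, Mvd, Fdft1, Sqle, Cyp51 and Msmo1, and all 7 rose with both dams. From day 14 to 42, 11 members were called with both dams, 84.6% of 13 and 73.3% of 15, and all 11 rose: those 7 with Idi1, Ebp, Dhcr7 and Srebf2. The count of members called from day 14 to 24 under the IgA-null dam changed when single libraries were left out. It was 5 without day 14 replicate 2 or without day 24 replicate 2, and 6 without day 14 replicate 3. The shares of all genes called in those settings are not given here, so whether the change is particular to the members cannot be told. Without the B6 dam libraries day 24 replicate 2 and day 42 replicate 1, left out together by a choice made after the values were seen, 9 members rose to day 24 (8.35% of all genes called) and 11 to day 42 (15.0%) under that dam, all of them enzymes but 1, and Srebf1 fell in both. The same 2 libraries left out took the members called under the IgA-null dam to 18 by day 24 (25.4% of all genes called) and 19 by day 42 (23.7%).

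**Figure D1:**
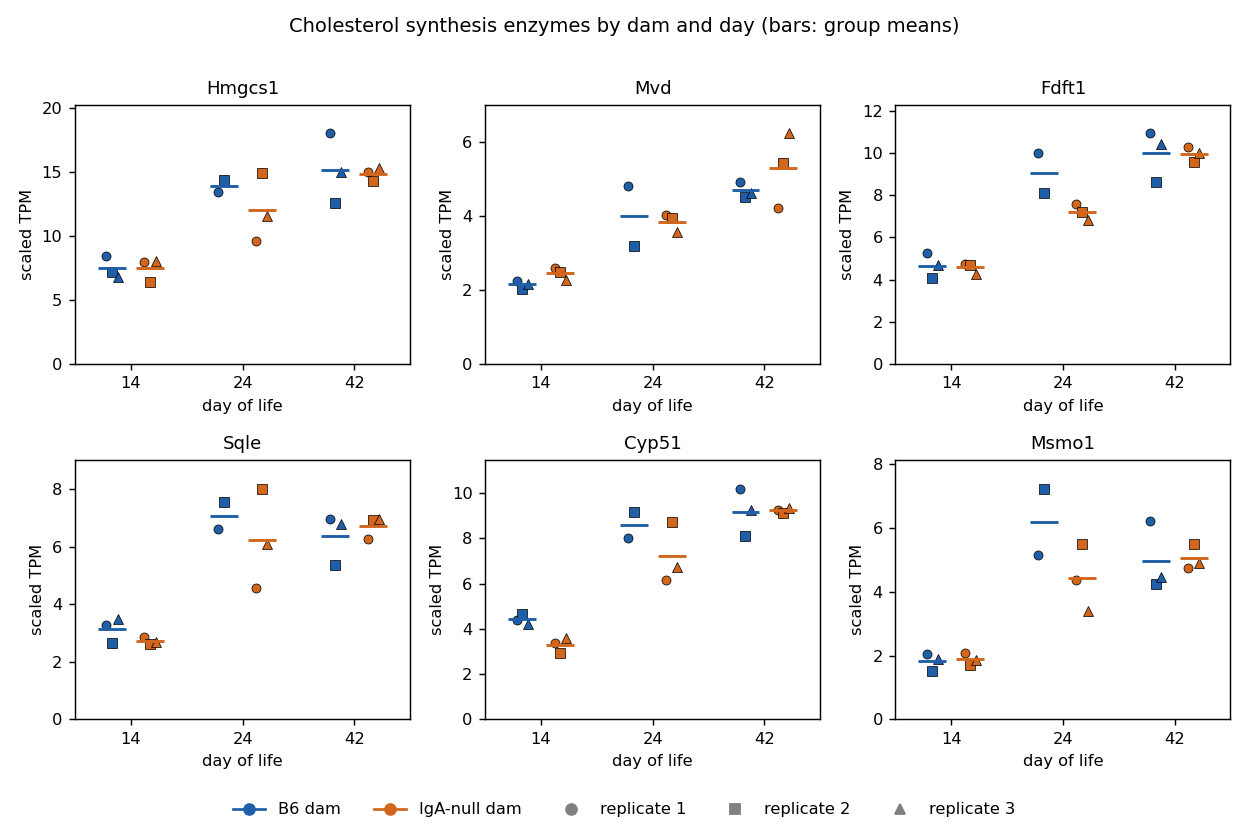
Scaled TPM (vertical axis, from 0) of 6 cholesterol synthesis enzymes in each library by day of life (horizontal axis). Blue is the B6 dam, orange the IgA-null dam, symbols are replicates and bars are group means; in each panel all 6 day 14 libraries lie below all 11 later ones.

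Among the mevalonate genes, Hmgcs1 encodes the cytosolic HMG-CoA synthase that commits acetyl units to the pathway (gene at chr13:119690379-119708260, plus strand, GRCm38). Its level under the B6 dam was 8.45, 7.14 and 6.82 at day 14, 13.5 and 14.404 at day 24 and 18.0, 12.6 and 15.0 at day 42. The IgA-null dam groups gave 7.95, 6.39 and 8.06 at day 14, 9.60, 14.9 and 11.5 at day 24 and 15.0, 14.305 and 15.3 at day 42. Every day 14 library was below every later one. The mean at day 42 was 2.03 times that at day 14 under the B6 dam (0.93 ± 0.15 SE, adjusted p = 0.000977) and 1.99 times under the IgA-null dam (0.91 ± 0.15 SE, adjusted p = 0.00147). By day 24 Hmgcs1 had risen by 0.82 under the B6 dam (adjusted p = 0.00638) and by 0.61 under the IgA-null dam (adjusted p = 0.0180).

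Mvk and Mvd encode the first and the last of the enzymes that turn mevalonate into the first isoprenoid unit. Mvk measured 1.95, 1.16 and 2.27 at day 14, 3.80 and 3.91 at day 24 and 2.62, 3.65 and 2.99 at day 42 under the B6 dam. The IgA-null dam libraries gave 1.94, 2.06 and 1.66 at day 14, 5.31, 4.23 and 3.65 at day 24 and 3.07, 3.70 and 3.47 at day 42. Mvk was highest at day 24 in both dams' means, and the day 14 libraries lay below the rest. It rose to day 24 with both dams, by 0.82 (adjusted p = 0.00653) and 0.89 (adjusted p = 0.00221), and the later difference from day 24 to 42 was not called with either (-0.26 and -0.28). Mvd measured 2.25, 2.03 and 2.17 at day 14, 4.81 and 3.19 at day 24 and 4.92, 4.52 and 4.63 at day 42 under the B6 dam. In the IgA-null dam groups Mvd was 2.59, 2.48 and 2.27 at day 14, 4.02, 3.93 and 3.56 at day 24 and 4.23, 5.42 and 6.23 at day 42. Mvd at day 42 exceeded day 14 in every library, 2.18-fold in the means under the B6 dam (0.85 ± 0.13 SE, adjusted p = 0.000413) and 2.16-fold under the IgA-null dam (0.86 ± 0.13 SE, adjusted p = 0.000589).

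Idi1, the isomerase that interconverts the isoprenoid units, rose to day 42 with both dams. B6 dam libraries went from 2.97, 2.28 and 2.82 at day 14 over 4.90 and 4.65 at day 24 to 4.03, 3.82 and 3.78 at day 42. The IgA-null dam groups went from 3.11, 2.68 and 2.06 at day 14 over 2.98, 4.07 and 3.16 at day 24 to 3.74, 4.87 and 4.52 at day 42. The day 24 libraries of the B6 dam were above those of the IgA-null dam, while the day 14 and the day 42 libraries of the dams overlapped. The rise to day 42 was 0.41 ± 0.13 SE, adjusted p = 0.0488 under the B6 dam and 0.58 ± 0.13 SE, adjusted p = 0.00806 under the IgA-null dam. Idi1 shares sequence with the pseudogenes Gm13502 and Gm35570, so reads can be divided between them.

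Fdps, the synthase of farnesyl diphosphate, had the lowest mean level of the list over the 17 libraries, 1.14 scaled TPM, and as few as 33 reads in a library. It measured 0.591, 0.597 and 0.445 at day 14 and 1.40, 1.10 and 1.31 at day 42 under the B6 dam, a called rise of 0.55 ± 0.13 SE, adjusted p = 0.0106. In the IgA-null dam groups Fdps was 1.05, 1.10 and 0.879 at day 14 and 0.975, 1.38 and 1.32 at day 42, with groups that overlapped and a difference of 0.14 ± 0.13 SE, adjusted p = 0.483 that was not called. Reads can be divided between Fdps and the pseudogene Gm3571, which is 98.9% identical over 1062 bases and stood higher, at 1.43 and 1.25 scaled TPM in the day 14 means and 3.16 and 3.35 in the day 42 means. The 3 remaining mevalonate genes were not called in any comparison of scaled values with all 17 libraries. Acat2, the cytosolic thiolase at the head of the pathway, ranged from 1.47 to 3.01 over all libraries, Pmvk, the phosphomevalonate kinase, from 5.31 to 12.2, and Ggps1, which makes geranylgeranyl diphosphate for prenylation, from 1.76 to 2.61. Without B6 dam day 24 replicate 2 and day 42 replicate 1, Ggps1 was called from day 14 to 42 under the IgA-null dam (0.24, adjusted p = 0.0470). Acat2 shares sequence with Tcp1 and Acat3, and exons of 13 of the 31 members overlap those of another gene, so their counts are less certain. Beside Fdft1, Abcg5 and Abcg8, described further on, those with an overlap are Hmgcs1, Idi1, Fdps, Ggps1, Lss, Cyp51, Tm7sf2, Lbr, Srebf1 and Scap.

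Among the enzymes from squalene to cholesterol, Fdft1 encodes squalene synthase, the first step that serves sterols alone. In the B6 dam groups it measured 5.25, 4.05 and 4.69 at day 14, 10.01 and 8.11 at day 24 and 10.9, 8.63 and 10.4 at day 42. The IgA-null dam groups measured 4.75, 4.71 and 4.28 at day 14, 7.60, 7.21 and 6.81 at day 24 and 10.3, 9.60 and 10.02 at day 42. Under the IgA-null dam the 3 days stood in order with no overlap, and under the B6 dam days 24 and 42 overlapped. The mean at day 42 was 2.14 times day 14 under the B6 dam (0.96 ± 0.11 SE, adjusted p = 4.56e-05) and 2.18 times under the IgA-null dam (0.97 ± 0.11 SE, adjusted p = 6.36e-05). Exons of Fdft1 overlap those of the cathepsin gene Ctsb on the other strand over 774 bases, and whether strand was used in counting is not stated. Ctsb had means of 45.3 at day 14 and 21.9 at day 42 under the B6 dam, and 21.7 and 21.6 under the IgA-null dam.

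Sqle encodes squalene epoxidase, a slow and tightly controlled step. It stood at 3.28, 2.65 and 3.48 at day 14, 6.61 and 7.54 at day 24 and 6.95, 5.37 and 6.81 at day 42 under the B6 dam. The IgA-null dam values were 2.87, 2.61 and 2.70 at day 14, 4.56, 8.01 and 6.11 at day 24 and 6.27, 6.93 and 6.95 at day 42. Every later library exceeded every day 14 library, and the IgA-null dam libraries at day 24 spread from the lowest to the highest of the later values. Sqle rose to day 24 by 0.97 (adjusted p = 0.00194) under the B6 dam and 0.93 (adjusted p = 0.00149) under the IgA-null dam. At day 42 the difference from day 14 was 0.83 ± 0.15 SE, adjusted p = 0.00188 and 1.05 ± 0.15 SE, adjusted p = 0.000469 in the same order.

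Cyp51, the lanosterol demethylase (gene at chr5:4081145-4104746, minus strand, GRCm38), had the largest called rise of the members from day 14 to 42 under the IgA-null dam. Its values there were 3.37, 2.92 and 3.58 at day 14, 6.18, 8.74 and 6.73 at day 24 and 9.26, 9.13 and 9.36 at day 42. In the B6 dam groups they were 4.38, 4.67 and 4.22 at day 14, 8.03 and 9.15 at day 24 and 10.2, 8.10 and 9.26 at day 42. The 3 IgA-null dam libraries at day 14 were the lowest of all 17, and at day 42 they lay inside the range of the B6 dam libraries. The day 42 mean was 2.81 times that of day 14 under the IgA-null dam (1.26 ± 0.12 SE, adjusted p = 1.34e-05) and 2.08 times under the B6 dam (0.91 ± 0.12 SE, adjusted p = 0.000131). The test of whether the dam effect differed between ages did not call Cyp51 (moderated F test, adjusted p = 0.599).

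Msmo1, the sterol methyl oxidase that takes off the next methyl groups, measured 2.06, 1.53 and 1.89 at day 14, 5.16 and 7.23 at day 24 and 6.22, 4.24 and 4.48 at day 42 under the B6 dam. The IgA-null dam groups measured 2.09, 1.72 and 1.85 at day 14, 4.38, 5.50 and 3.41 at day 24 and 4.75, 5.50 and 4.90 at day 42. No later library reached down to the day 14 values, and the highest value, at day 24, came from replicate 2 of the B6 dam group. Its rise to day 24 was 1.34 ± 0.18 SE, adjusted p = 0.000278 under the B6 dam and 0.90 ± 0.16 SE, adjusted p = 0.00284 under the IgA-null dam, and to day 42 it was 1.07 (adjusted p = 0.000431) and 1.07 (adjusted p = 0.000647).

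Among the other enzymes of the part from squalene to cholesterol, Dhcr7, the reductase that yields cholesterol from 7-dehydrocholesterol, was 2.05, 1.82 and 1.44 at day 14 and 3.13, 2.91 and 2.93 at day 42 under the B6 dam, and 1.99, 1.24 and 1.54 and 2.80, 3.02 and 2.95 under the IgA-null dam. Day 42 lay above day 14 without overlap, with changes of 0.53 ± 0.13 SE, adjusted p = 0.0131 and 0.61 ± 0.13 SE, adjusted p = 0.00634. Ebp, the sterol isomerase, rose by 0.80 under the B6 dam (adjusted p = 0.0183) and 0.73 under the IgA-null dam (adjusted p = 0.0272) from day 14 to 42. Lss, the lanosterol cyclase, and Nsdhl, the sterol dehydrogenase, were called under the IgA-null dam, at 0.42 (adjusted p = 0.0276) and 0.51 (adjusted p = 0.0295). Under the B6 dam their differences of 0.36 and 0.37 were positive and not called (adjusted p = 0.0571 and 0.120), and the difference between dams was not called.

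The 4 other late enzymes, Tm7sf2 and Lbr, which are both sterol reductases, the ketone reductase Hsd17b7 and the desaturase Sc5d, were not called in any comparison of scaled values with all 17 libraries. Lbr, which is also a receptor for lamin B in the nuclear envelope, ranged from 7.89 to 18.3, with both ends at day 24. Sc5d ranged from 3.08 to 11.0, and its 2 highest libraries were replicate 2 of the B6 dam group at day 24, at 11.0, and replicate 1 at day 42, at 9.55. Those are the libraries in which the transport genes described further on were highest. Without them Sc5d was called higher under the IgA-null dam from day 14 to 24 (0.59, adjusted p = 0.00741) and to 42 (0.63, adjusted p = 0.00638), and Lbr was called lower from day 14 to 24 (-0.38, adjusted p = 0.0325) and higher from day 24 to 42 (0.56, adjusted p = 0.00925).

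**Figure D2:**
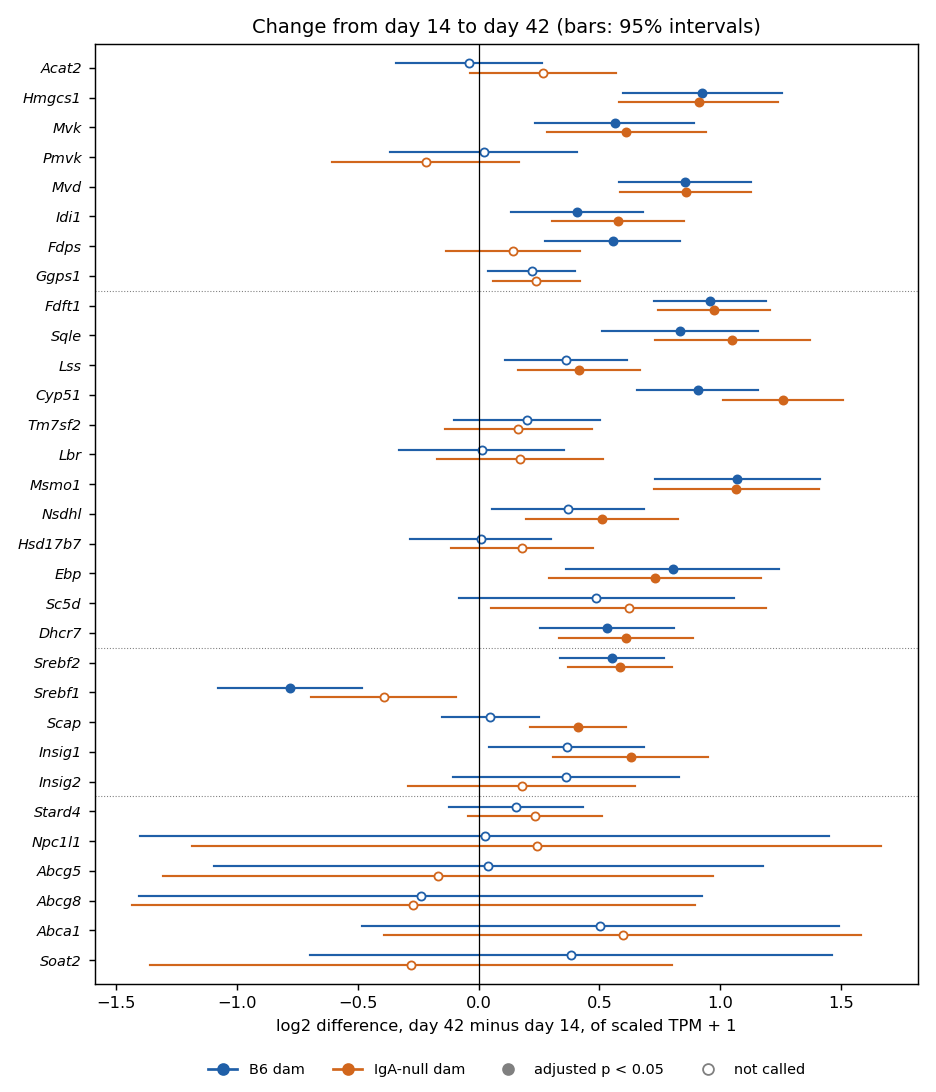
Log2 difference between day 42 and day 14 (horizontal axis) for each of the 31 genes (vertical axis, by role) under the B6 dam (blue) and the IgA-null dam (orange); bars are 95% intervals and filled points are called. Fdft1, Cyp51, Msmo1, Hmgcs1, Mvd and Sqle lie furthest right with both dams, Srebf1 alone is called to the left, under the B6 dam, and the transport genes other than Stard4 have the widest intervals.

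Markers of several epithelial cell types were called over the same ages, where 13.6% of all genes were called under the B6 dam and 16.5% under the IgA-null dam from day 14 to 42, and their part in the rise of the enzymes was not tested. The summed level of 4 proximal enterocyte markers (Fabp1, Apoa4, Apoc3, Adh1) was 1732 to 5256 at day 14 and 224 to 1734 at day 42 under the B6 dam, where 1 of the 4 was called higher and 2 lower. Under the IgA-null dam it was 1655 to 3130 and then 186 to 376, with 1 called higher and 3 lower. The 4 goblet cell markers summed to 243 to 380.5 at day 14 and 1113 to 1460.5 at day 42 under the B6 dam, with 4 called higher, and to 893 to 1395 and 1056 to 1211 under the IgA-null dam, with 0 called. The 7 cell cycle markers summed to 114 to 147 and 86.3 to 100.3 under the B6 dam, with 2 called lower, and to 119 to 131 and 98.1 to 106 under the IgA-null dam, with 1 called lower. The 3 enteroendocrine markers (Chga, Chgb, Neurod1) summed to 73.5 to 88.0 at day 14, 283 to 360 at day 24 and 159 to 508 at day 42 under the B6 dam, with 3 of 3 called higher at both later days. Under the IgA-null dam they summed to 406 to 460 at day 14, 182 to 259 at day 24 and 429 to 519 at day 42, with 1 called lower from day 14 to 24 and 0 called from day 14 to 42. None of these markers was at 0 in a library.

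SREBP control genes split by member. Srebf2, the activator of the enzymes described above, measured 12.3, 11.1 and 11.8 at day 14, 15.3 and 14.7 at day 24 and 16.5, 18.5 and 18.1 at day 42 under the B6 dam. In the IgA-null dam groups Srebf2 was 12.7, 12.5 and 10.3 at day 14, 15.0, 16.4 and 13.7 at day 24 and 17.9, 17.1 and 19.5 at day 42. Days 14, 24 and 42 stood in rising order with no overlap within either dam. The change to day 42 was 0.55 ± 0.10 SE, adjusted p = 0.00198 under the B6 dam and 0.58 ± 0.10 SE, adjusted p = 0.00168 under the IgA-null dam, smaller than that of most enzymes called.

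Srebf1, whose SREBP-1 products act mainly on fatty acid synthesis, went the other way. Under the B6 dam its level was 12.4, 11.0 and 9.41 at day 14, 5.43 and 7.57 at day 24 and 6.61, 6.04 and 5.17 at day 42. In the IgA-null dam groups Srebf1 was 10.3, 7.69 and 8.32 at day 14, 7.21, 6.55 and 7.73 at day 24 and 5.97, 6.24 and 6.98 at day 42. Day 14 lay above the later days without overlap under the B6 dam, and under the IgA-null dam day 14 and day 24 met at 7.69 and 7.73. Under the B6 dam Srebf1 fell by 0.68 to day 24 (adjusted p = 0.0111) and by 0.78 to day 42 (SE 0.14, adjusted p = 0.00178). The difference under the IgA-null dam, -0.39 ± 0.14 SE, adjusted p = 0.0692, was negative and not called. It was called without B6 dam day 24 replicate 2 and day 42 replicate 1 (-0.39, adjusted p = 0.0364), and in the TPM as deposited it was -0.98 (adjusted p = 0.00154), where the median of all genes shifted by -0.48. The test of whether the dam effect differed between ages did not call Srebf1 (moderated F test, adjusted p = 0.570). Srebf1 has several first exons, and a count per gene does not tell its SREBP-1a and SREBP-1c forms apart.

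Insig1, a retention protein and itself an SREBP target, rose under the IgA-null dam. Its values there were 6.31, 4.90 and 4.32 at day 14, 7.40, 9.30 and 8.39 at day 24 and 7.21, 8.83 and 9.55 at day 42. The B6 dam values were 6.82, 7.14 and 5.05 at day 14, 8.93 and 9.24 at day 24 and 9.55, 7.65 and 8.02 at day 42. Day 14 lay below the other days in both cases. The change to day 42 was 0.63 ± 0.15 SE, adjusted p = 0.0118 under the IgA-null dam, and under the B6 dam it was 0.37 ± 0.15 SE, adjusted p = 0.130 and not called. Insig2, its relative, ranged from 1.03 to 3.42 and was not called in any comparison of scaled values with all 17 libraries.

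Scap, the escort of SREBPs, was the one member called between days 24 and 42 under the IgA-null dam, where 2.58% of all genes were called. It measured 2.12, 2.22 and 1.86 at day 14, 1.79, 1.98 and 2.28 at day 24 and 3.07, 3.12 and 3.03 at day 42. The day 42 libraries stood above all others of that dam. The change from day 24 was 0.44 ± 0.09 SE, adjusted p = 0.0320. It was no longer called without any 1 of 5 of the 6 libraries compared, the exception being IgA-null dam day 24 replicate 3. The adjusted p was up to 0.122, without IgA-null dam day 42 replicate 1. Without IgA-null dam day 24 replicate 2, 1 member, not named here, was called in this comparison. The share of all genes called in that setting is not given here. Under the B6 dam Scap measured 2.77, 2.25 and 2.71 at day 14, 2.95 and 2.43 at day 24 and 2.50, 2.92 and 2.68 at day 42, with no order among the days, and its change from day 24 was 0.0037 ± 0.10 SE, adjusted p = 1.

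**Figure D3:**
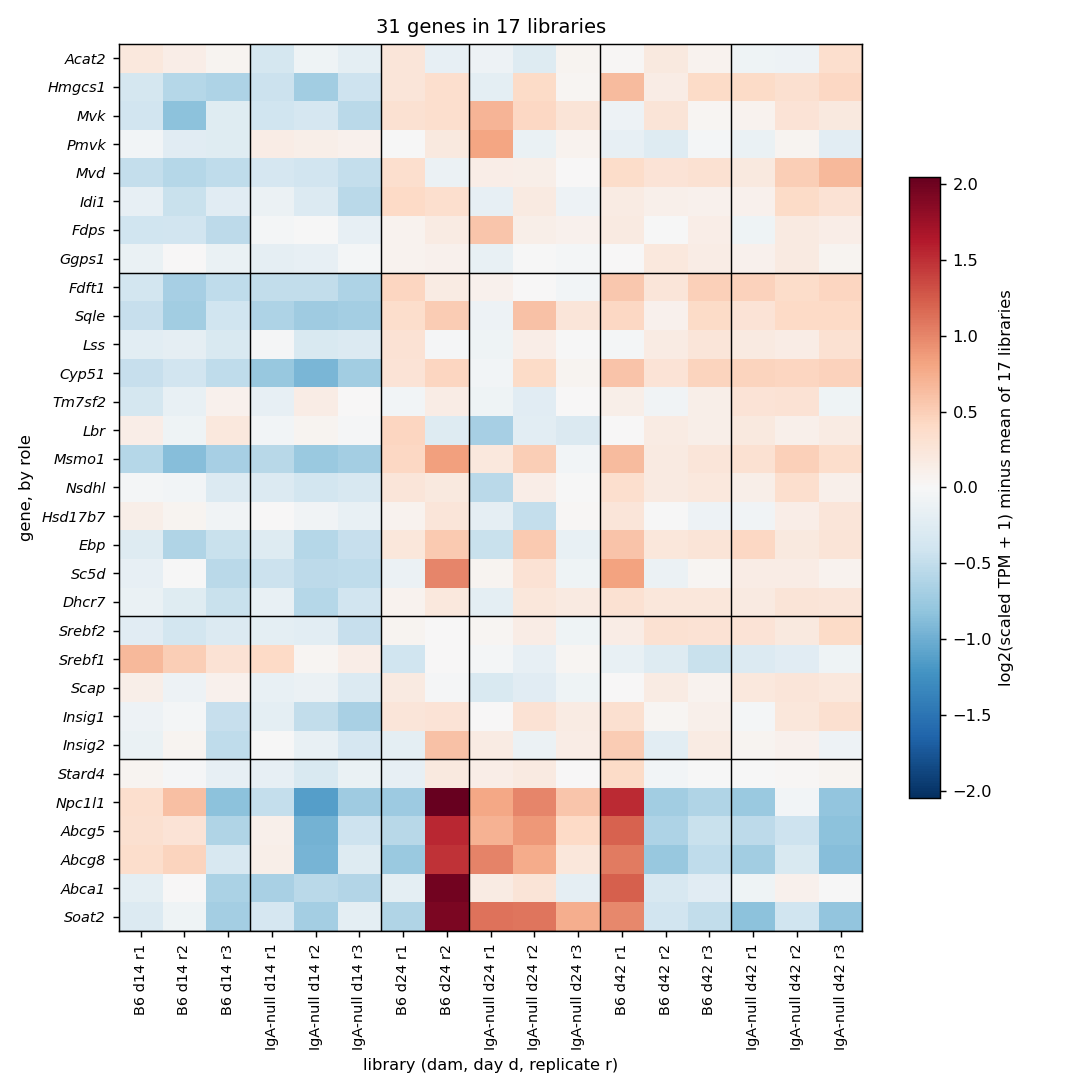
Log2(scaled TPM + 1) of each of the 31 genes (rows, by role) in each of the 17 libraries (columns, by dam and day), minus the gene's mean over the libraries; red is higher and blue lower. Most enzyme rows are blue in the 6 day 14 columns, Srebf1 is red in most of them, and the transport rows are reddest in replicate 2 of the B6 dam group at day 24 and replicate 1 at day 42.

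Sterol transport genes other than Stard4 varied most between the libraries of 1 group. Npc1l1, the uptake transporter and the most abundant member on average (28.1 scaled TPM), measured 28.4, 34.4 and 12.03 at day 14, 12.9 and 94.7 at day 24 and 65.6, 13.2 and 14.07 at day 42 under the B6 dam. In the IgA-null dam groups Npc1l1 was 15.5, 9.59 and 13.1 at day 14, 39.0, 45.1 and 33.4 at day 24 and 12.8, 21.3 and 12.2 at day 42. In the B6 dam groups 1 library at day 24 and 1 at day 42 were far above their partners, and under the IgA-null dam all day 24 libraries were above all others.

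Soat2, the esterifying enzyme, showed the same high libraries. Its values were 13.3, 15.3 and 9.70 at day 14, 10.4 and 64.7 at day 24 and 33.1, 12.3 and 11.2 at day 42 under the B6 dam. The values under the IgA-null dam were 12.7, 9.76 and 14.09 at day 14, 36.6, 35.8 and 28.1 at day 24 and 8.67, 12.01 and 8.91 at day 42. Its level in the day 24 libraries of the IgA-null dam lay between the 2 libraries of the B6 dam. Abcg5 reached 10.4 and 48.5 at day 24 under the B6 dam and 26.6, 30.3 and 21.4 under the IgA-null dam, against 7.68 to 20.1 over both day 14 groups. Abcg8, its partner and divergent neighbour, reached 6.05 and 32.1 and 23.1, 19.2 and 13.1, against 5.20 to 15.3 at day 14. Exons of Abcg5 and Abcg8 overlap on opposite strands, so part of each gene's reads may be counted in the other. Abca1 ranged from 0.416 to 7.81, an 18.8-fold span, with its highest values in replicate 2 of the B6 dam group at day 24 and replicate 1 at day 42 (4.21). Stard4, a soluble sterol carrier and SREBP-2 target, varied far less, from 12.2 to 20.5, and its 2 highest values were in the same 2 libraries, at 17.9 and 20.5.

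None of the 6 transport genes was called in any comparison of ages or dams with all 17 libraries. From day 14 to 24 under the B6 dam an unadjusted p under 0.05 was reached by 1 of the 6, Abca1, and by 4164 of all 15066 genes. Over the same days under the IgA-null dam it was reached by 3, Stard4, Npc1l1 and Soat2, and by 5007 of all genes. Between days 24 and 42 under the IgA-null dam it was reached by 3, Abcg5, Abcg8 and Soat2, and by 3470 of all genes. For the change from day 14 to 24 under the IgA-null dam, Npc1l1 gave 1.56 ± 0.66 SE, adjusted p = 0.118 and Soat2 1.39 ± 0.50 SE, adjusted p = 0.0724, although the groups did not overlap. The spread behind each test is shared over all groups, the unlike B6 dam libraries included. Without replicate 2 of the B6 dam group at day 24 and replicate 1 at day 42, a setting added after the values were seen, all 6 transport genes were called higher from day 14 to 24 under the IgA-null dam. The adjusted p was then 0.00471 for Npc1l1, 0.0144 for Abcg5, 0.0227 for Abcg8, 0.00947 for Abca1, 0.000263 for Soat2 and 0.0162 for Stard4, with 25.4% of all genes called. Between days 24 and 42 of the same dam, Npc1l1, Abcg5, Abcg8 and Soat2 were then called lower, by 1.27 to 1.68 on the log2 scale, where 9.19% of all genes were called lower.

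The direction of the B6 dam change to day 24 depended on which library was kept for 5 of the 6 transport genes, Npc1l1, Abcg5, Abcg8, Soat2 and Stard4. The log2 difference of Soat2 from day 14 to 24 was 2.27 without replicate 1 of the day 24 pair (adjusted p = 0.00368) and -0.25 without replicate 2 (adjusted p = 0.823). For Npc1l1 the same values were 2.00 (adjusted p = 0.0652) and -0.78 (adjusted p = 0.620). Abca1 was positive either way, at 2.25 without replicate 1 (adjusted p = 0.00383) and 0.083 without replicate 2 (adjusted p = 0.953). Without replicate 1, Soat2 and Abca1 were also called lower from day 24 to 42 under the B6 dam, by 1.89 and 1.75, with 5.07% of all genes called.

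Markers of enterocytes stood high in the same libraries. The 4 distal enterocyte markers (Fabp6, Slc10a2, Slc51a, Slc51b) summed to 72.5 in replicate 1 and 393 in replicate 2 of the B6 dam group at day 24, and to 359, 71.6 and 45.2 at day 42. In the IgA-null dam group at day 24 they summed to 182, 139 and 114, and in the remaining groups to 28.0 to 109. The 4 proximal enterocyte markers summed to 384 and 4266 in the B6 dam pair at day 24, to 1734, 224 and 597 in the B6 dam group at day 42, and to 3016, 1426 and 1646 in the IgA-null dam group at day 24. At day 14, where the transport genes were not at their highest, the proximal markers summed to 1655 to 5256. The 3 Paneth cell markers summed to 9794 in replicate 1 of the B6 dam group at day 42, and to 620.3 and 1662 in its partners. The 4 stem cell markers summed to 875.5 and 432.5 in the B6 dam pair at day 24. None of these markers was at 0 in a library, and their part in the levels of the transport genes was not tested.

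**Figure D4:**
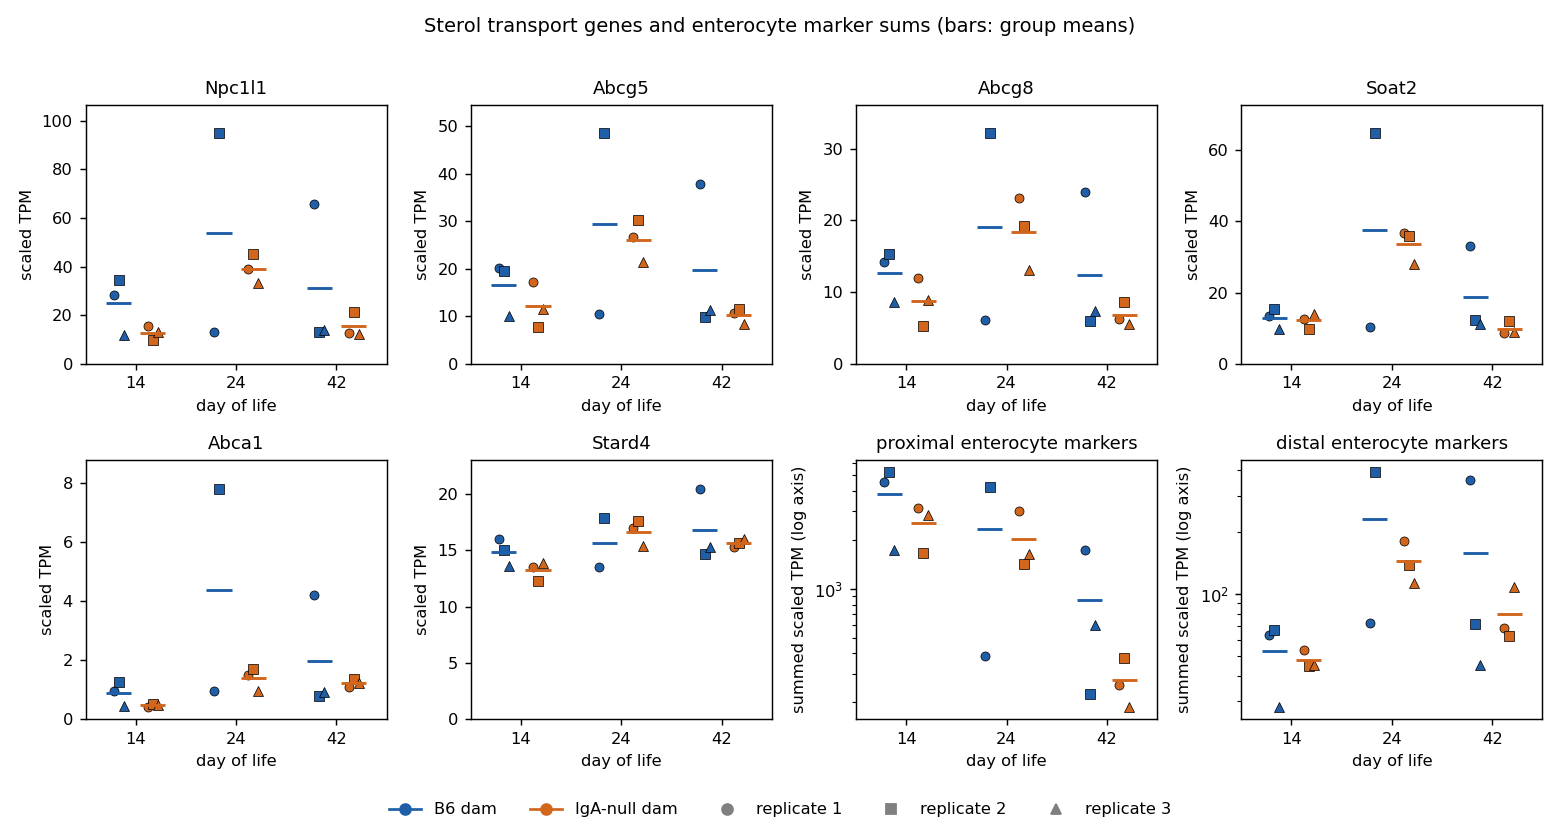
Scaled TPM (vertical axis, from 0) of the 6 sterol transport genes in each library by day of life, and the summed scaled TPM of 4 proximal and 4 distal enterocyte markers (log vertical axes). Symbols and colours are as in the plot of the synthesis enzymes, and the blue square at day 24 and the blue circle at day 42 are the highest of their day in all 8 panels.

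Between dams, no member was called at any age by limma, and none of the 28 members with recovered reads by limma-voom on those reads. At day 14, 2.93% of all genes were called, and 2912 of the 15066 had an unadjusted p under 0.05. Of the 31 members, 4 had an unadjusted p under 0.05, and the smallest adjusted p was 0.117. At that age 4 of 4 goblet cell markers (median difference 1.77) and 3 of 3 enteroendocrine markers (median 2.30) were called higher under the IgA-null dam, and their part in the differences of the members was not tested. The lowest p values belonged to Fdps, Cyp51 and Acat2. Fdps was 1.05, 1.10 and 0.879 under the IgA-null dam and 0.591, 0.597 and 0.445 under the B6 dam, without overlap (0.38 ± 0.13 SE, adjusted p = 0.117). Cyp51 was 3.37, 2.92 and 3.58 under the IgA-null dam and 4.38, 4.67 and 4.22 under the B6 dam, again without overlap and in the opposite direction (-0.34 ± 0.12 SE, adjusted p = 0.119). Acat2 was 1.47, 2.01 and 1.77 under the IgA-null dam and 2.69, 2.50 and 2.32 under the B6 dam (-0.35 ± 0.14 SE, adjusted p = 0.180).

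At day 24, 0% of all genes were called with all libraries, 1520 genes had an unadjusted p under 0.05, and 7 members had an unadjusted p under 0.05. All 12 enzymes from squalene to cholesterol had a negative difference, with a median of -0.32 against -0.03 over all genes. The difference was positive for 6666 of all 15066 genes. Idi1 had the lowest p: 2.98, 4.07 and 3.16 under the IgA-null dam and 4.90 and 4.65 under the B6 dam (-0.40 ± 0.14 SE, adjusted p = 0.396). Scap was 1.79, 1.98 and 2.28 under the IgA-null dam and 2.95 and 2.43 under the B6 dam (-0.29 ± 0.10 SE, adjusted p = 0.402), and the sets did not overlap. Lbr was 7.89, 11.3 and 10.6 under the IgA-null dam and 18.3 and 10.9 under the B6 dam, and the sets overlapped (-0.48 ± 0.18 SE, adjusted p = 0.416). Without the B6 dam libraries day 24 replicate 2 and day 42 replicate 1, Lbr was called lower (-0.83, adjusted p = 0.0296) and Soat2 higher (1.60, adjusted p = 0.0171) under the IgA-null dam, with 2.66% of all genes called. That comparison holds a single B6 dam library at day 24, which is assumed to vary like the other groups.

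At day 42, 0% of all genes were called, 243 genes had an unadjusted p under 0.05, and 0 of these were members. The differences of the 20 enzymes ran from -0.12 to 0.14, and their 95% intervals, unadjusted, reached from -0.69 to 0.45. Hmgcs1 had group means of 15.2 ± 2.73 (SD, n = 3) for the B6 dam and 14.9 ± 0.502 (SD, n = 3) for the IgA-null dam. Cyp51 was 9.19 ± 1.05 (SD, n = 3) and 9.25 ± 0.113 (SD, n = 3) in the same order. The 3 smallest p values were those of Scap (0.14), Soat2 (-0.72) and Abcg5 (-0.63), each with an adjusted p of 1. The interval of Npc1l1 at day 42 was -2.03 to 0.82, the widest of the members.

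The test of whether the dam effect differed between ages, which equally asks whether the change with age differed between dams, called 0 of the 31 members and 0.139% of all genes. An unadjusted p under 0.05 was reached by 2 members and by 1534 of all 15066 genes. The smallest adjusted p values were 0.362 for Scap, 0.472 for Idi1 and 0.570 for Srebf1. Calls with 1 dam and not with the other, such as those of Srebf1, Fdps, Lss, Nsdhl, Scap and Insig1 from day 14 to 42, are not shown to differ between the dams. Without B6 dam day 24 replicate 2 and day 42 replicate 1 this test called 1 member, Soat2 (adjusted p = 0.0409), with 1.25% of all genes called. From day 24 to 42 under the B6 dam 0 members and 0.0265% of all genes were called. An unadjusted p under 0.05 was reached there by 0 members and by 1059 of all 15066 genes. The lowest p values there were those of Srebf2 (0.22), Idi1 (-0.24) and Msmo1 (-0.27), with adjusted p of 0.714, 0.748 and 0.768.

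**Figure D5:**
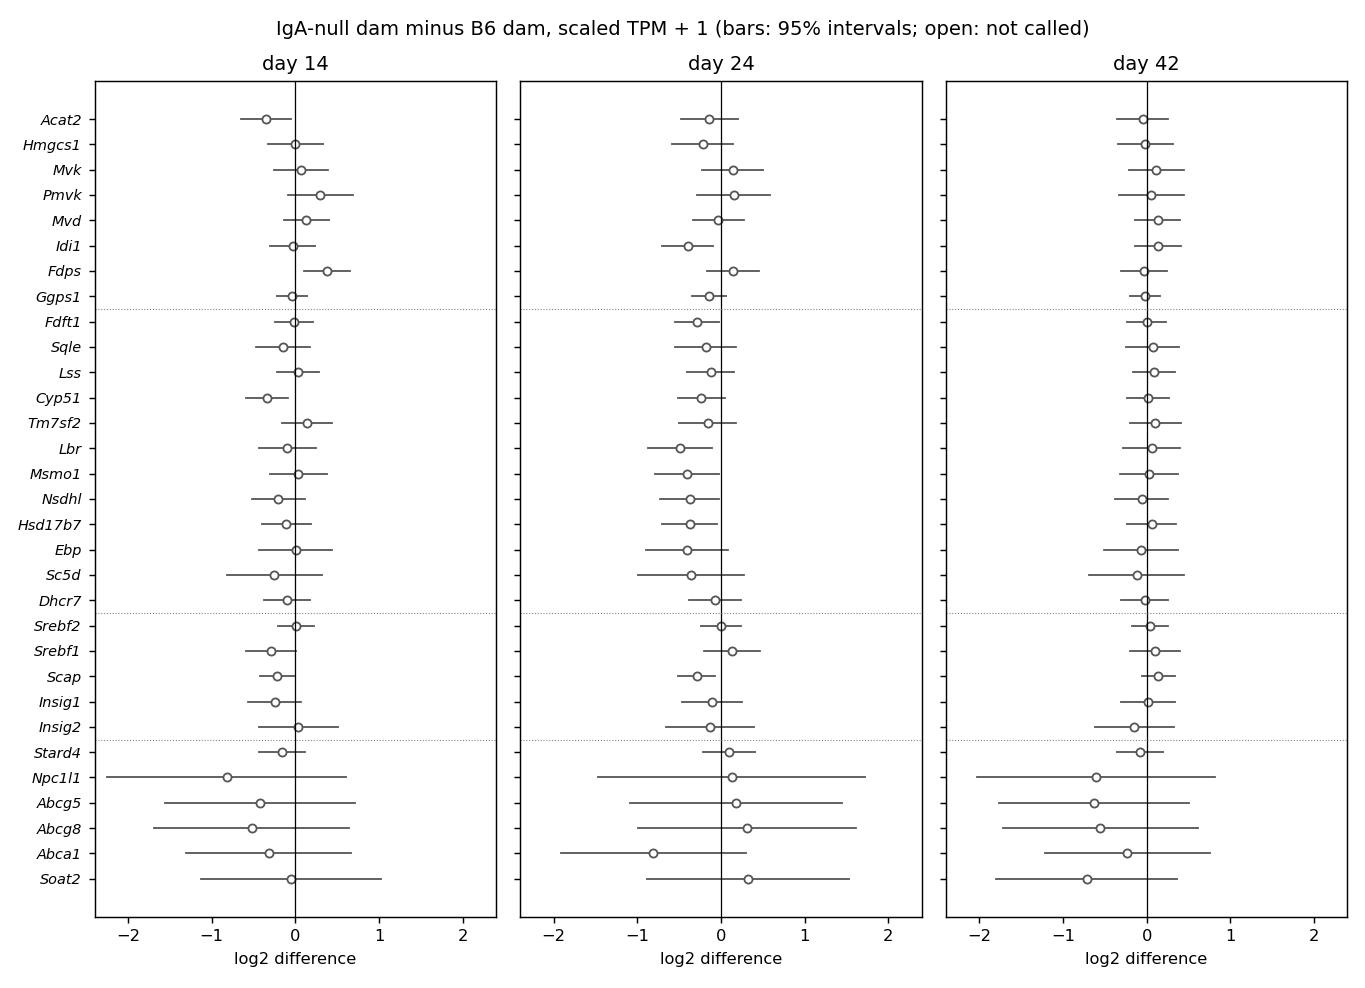
Log2 difference between the IgA-null dam and the B6 dam (horizontal axis) at days 14, 24 and 42 for each of the 31 genes (vertical axis, by role); bars are 95% intervals. Every point is open because none was called, the enzymes from squalene to cholesterol lie left of 0 at day 24, and the enzymes are closest to 0 at day 42.

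Scaling between libraries bears on the age changes under the IgA-null dam. The RNA Gm23935 took 40.2% to 61.9% of the deposited TPM of a library, and mitochondrial transcripts took 13.7% to 34.6%. Under the IgA-null dam Gm23935 took 54.2%, 61.6% and 40.2% at day 14 and 53.4%, 54.8% and 56.8% at day 24. Mitochondrial transcripts took 16.6%, 13.7% and 28.9%, then 31.5%, 33.3% and 32.9% in the same libraries. TPM share a fixed total, and the part of these RNAs in the shifts given next was not tested. In the TPM as deposited, the median over all genes shifted by -1.02 from day 14 to 24, 0.53 from day 24 to 42 and -0.48 from day 14 to 42 with that dam, and by -0.29, 0.12 and -0.17 under the B6 dam. From day 14 to 24 under the IgA-null dam, 22 members were then called and all 22 were lower, where 83.8% of all genes were called, and the 8 enzymes that rose in scaled values all had a negative difference. Relative to the median of all genes, 18 of the 20 enzymes were above it in that comparison, by a median of 0.29, and 18 of 20 were above it under the B6 dam, by 0.58. By day 42 the enzymes stood 0.58 above the median of all genes under the IgA-null dam (19 of 20) and 0.50 under the B6 dam (17 of 20). As deposited, 2 members were called from day 14 to 24 under the B6 dam, 1 higher and 1 lower (8.61% of all genes called), 22 from day 24 to 42 under the IgA-null dam, all higher (49.3%), and 1 between dams at day 14, Fdps (0.68, adjusted p = 0.0288, 8.68%). Also as deposited, 6 members were called from day 14 to 42 under the B6 dam, 5 higher and 1 lower (9.11% of all genes), and 5 under the IgA-null dam, 3 higher and 2 lower (40.7%).

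Other genes of sterol and lipid metabolism were read from lists outside the 31. In fatty acid synthesis, the branch that SREBP-1 serves, 11 of 13 genes were tested. From day 14 to 42, 3 of the 11 rose and 1 fell under the B6 dam, where 13.6% of all genes were called. Under the IgA-null dam 7 rose and 1 fell, where 16.5% were called. Scd2, a stearoyl-CoA desaturase, rose from a mean of 2.01 ± 1.17 (SD, n = 3) to 11.7 ± 1.31 (SD, n = 3) under the B6 dam (2.16 ± 0.27 SE, adjusted p = 9.88e-05) and from 2.15 ± 0.347 (SD, n = 3) to 16.5 ± 4.87 (SD, n = 3) under the IgA-null dam (2.44 ± 0.27 SE, adjusted p = 5.84e-05). Elovl6, a fatty acid elongase, rose by 0.78 and 0.78, while Me1, the malic enzyme that supplies NADPH, fell by 1.41 under the B6 dam and 1.12 under the IgA-null dam.

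In intracellular sterol movement and storage, 12 of 12 genes were tested. With either dam 2 of the 12, or 16.7%, were called from day 14 to 24 and 2 from day 14 to 42. That is near the 13.6% to 16.6% of all genes called in these comparisons. Under the B6 dam 2 were lower each time, and under the IgA-null dam 1 was higher and 1 lower each time. From day 14 to 24 the call beside Stard5 is not named here with either dam. Stard5, a sterol-binding carrier protein, fell from 6.27 ± 0.880 (SD, n = 3) at day 14 to 2.36 ± 0.295 (SD, n = 2) at day 24 and 2.31 ± 0.362 (SD, n = 3) at day 42 under the B6 dam, and from 5.62 ± 0.780 (SD, n = 3) to 2.04 ± 0.664 (SD, n = 3) and 3.13 ± 0.0741 (SD, n = 3) under the IgA-null dam, and each change from day 14 was called. Lipa, the lysosomal acid lipase that frees cholesterol from its esters, fell by 2.05 from day 14 to 42 under the B6 dam (adjusted p = 0.0268). Tmem97, a sterol-responsive membrane protein, rose by 0.94 under the IgA-null dam (adjusted p = 0.00527). Between dams, Npc2, which carries cholesterol out of the lysosome, was the only listed sterol or lipid gene called: at day 14 it was 4.06, 4.02 and 4.46 under the IgA-null dam and 6.79, 7.51 and 5.81 under the B6 dam, without overlap (-0.57 ± 0.14 SE, adjusted p = 0.0480). At that age 2.93% of all genes were called between dams.

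Of 8 genes of SREBP processing and sterol-linked degradation, 1, Erlin1, rose from day 14 to 24 under the B6 dam, where 13.8% of all genes were called (0.89 ± 0.27 SE, adjusted p = 0.0470). Among 11 isoprenoid branch genes, 1 was called in each of 2 comparisons, both subunits of the ubiquinone side chain synthase: Pdss1 higher from day 14 to 24 under the B6 dam (0.47) and Pdss2 higher from day 14 to 42 under the IgA-null dam (0.36), where 13.8% and 16.5% of all genes were called. Of the 6 oxysterol receptor and target genes 5 were tested, and of the 4 oxysterol-making enzymes 2, and 0 were called in any comparison.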

How the data were processed

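Cells sorted as EpCAM+ CD45- Ter119- gave 17 RNA-seq libraries in 6 groups of dam and day. The authors deposited 1 table of TPM values for 53278 gene symbols. The submitters' processing notes name Bowtie2, Subread, DESeq2 and the build mm10, and strand use is not given in the sources used here. Multiplying TPM by exon length gave whole reads for 93.6% of values above 0, within 0.01 reads or 1e-04 of the value. The whole reads summed to 8477226 to 18305346 per library, a lower bound of the depth.

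TPM were divided by a median-of-ratios size factor per library, taken over 16088 genes above 0 in every library. limma 3.58.1 in R 4.3.3 was fitted to log2(scaled TPM + 1) of all 17 libraries and 15066 genes that reached 1 TPM in 2 or more libraries, with a variance trend. P-values were Benjamini-Hochberg adjusted over all genes tested, with a threshold of 0.05, and a moderated F test asked whether the dam effect differed between ages. With 3 libraries a group or fewer, precision is set by their number.

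Members called, and otherwise the 3 members with the smallest p between dams, were described. The members, the other gene lists and the markers were chosen with earlier results of these data known. Alternatives were TPM as deposited, pseudocounts of 0.1 and 5, no filter, a filter at 5 TPM, a replicate block, limma-voom on recovered reads and each library left out.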

Additional observations from a re-analysis of the deposited data

How the results depend on the processing

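Alternatives were followed only for members picked in each comparison by the smallest p, called ones where there were any. No transport gene was among them for a comparison of ages. Several of those reversed when a B6 dam day 24 library was left out, as given above. Of the 604 values of the picked members, 594 kept their direction and 561 also their side of the threshold. With TPM as deposited, log2 differences reversed from day 14 to 24 under the IgA-null dam for Cyp51 (-0.31), Sqle (-0.27), Mvk (-0.20), Msmo1 (-0.20), Fdft1 (-0.71), Insig1 (-0.69), Hmgcs1 (-0.75) and Mvd (-0.63), for Srebf2 to day 42 (-0.0077) and for Cyp51 between dams at day 14 (0.028). Members called were then 1 between dams at day 14, 2 from day 14 to 24 and 6 from day 14 to 42 under the B6 dam, and 22, 22 and 5 from day 14 to 24, 24 to 42 and 14 to 42 under the IgA-null dam. From day 24 to 42 under the IgA-null dam 2 were called with a pseudocount of 5, Fdft1 and Scap, and 0 with no filter or with the replicate block. The shares of all genes called under those settings are not given here. At an unadjusted p under 0.05 limma gave 12 members and 3470 of all 15066 genes in that comparison.

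Without the B6 dam libraries day 24 replicate 2 and day 42 replicate 1, chosen after seeing the data, 2 members were called between dams at day 24, 18 from day 14 to 24 and 8 from day 24 to 42 under the IgA-null dam, and 1 by the F test. Leaving out each library in turn gave 5 to 11 members from day 14 to 24 and 0 to 1 from day 24 to 42 under the IgA-null dam, and 0 to 2 from day 24 to 42 under the B6 dam, the 2 without day 24 replicate 1. It gave 8 to 13 and 10 to 12 from day 14 to 24 and to 42 under the B6 dam, 10 to 14 from day 14 to 42 under the IgA-null dam, and 0 between dams at each age. The shares of all genes called without each library are not given beside these counts.

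Replicate numbers did not pair libraries: deviations of the 40 same-numbered pairs had a median correlation of -0.017, with 9 over 0.1, and 2 of 17 libraries correlated best with their own number. The replicate block gave 10 and 8 members from day 14 to 24 under the B6 dam and the IgA-null dam. limma-voom on recovered reads of 28 members gave 13 and 8, and Mvd was not called there under the IgA-null dam (0.64, adjusted p = 0.0734). The cause of that was not tested. The shares of all genes called with the block or with limma-voom are not given here. Members had from 33 to 6914 reads in a library, which limits the lowest, such as Fdps.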
